A study of Mus musculus with 4 samples.

Results

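KLF1 binding sites that lie near each other along the genome were examined in mouse fetal liver. Of the 945 peaks in the authors' list, 224 (23.7%) had another listed peak within 50 kb, measured from midpoint to midpoint. Positions given below are midpoints on the mm9 build. The 224 were chosen by the listed positions alone, at all heights, and the other 721 peaks had no listed neighbour within that distance. The list itself came from the ChIP reads, so heights and ratios of ChIP to input at these peaks are given as descriptions, with no test.

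KLF1 is a zinc finger transcription factor of the red cell lineage that recognises CACCC-type motifs in promoters and enhancers. The globin genes and genes of heme synthesis, the red cell membrane and the cell cycle are among its known targets. Erythroid enhancers are often built of several bound elements spread over long stretches of DNA, as in the locus control region upstream of the beta-globin genes. A list of peaks can hold such elements as neighbours, but it can also split a single bound region into several entries.

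All material came from 4 fetal livers lacking Klf3 (Balb/c Klf3 -/-, labelled female), collected at E14.5 (days of embryonic development) and pooled, so the control DNA carried the same deletion and no wild-type liver was included. KLF3 is a related factor that also binds CACCC motifs. Chromatin immunoprecipitated with a rabbit polyclonal antibody to KLF1 was compared with input DNA, which went through no precipitation. The labels give erythroid cells within liver as the source, and DNA binding data hold no marker expression with which to check this. The 4 sequenced samples, 2 of ChIP and 2 of input, were runs on SOLiD Systems 2.0 and 3.0, and the deposited files merge both runs of each kind. The ChIP library held 17438921 reads and the input library 47356494, or 2.72 input reads for each ChIP read. With 1 merged library per group there is no replicate error. The 95% intervals below are exact Clopper-Pearson intervals, which cover counting error only.

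The neighbouring peaks formed 98 groups, joined by steps of at most 50 kb. Pairs made up 78 of the groups, 13 held 3 peaks, 6 held 4 and 1 held 5. The groups spanned 613 bp to 82297 bp, with a median of 17202 bp. Between consecutive peaks of a group lay 126 gaps. Their median was 11194.5 bp, with 46 gaps over 20 kb and 19 between 10 and 20 kb. Of the shorter gaps, 23 were of 5 to 10 kb, 19 of 2 to 5 kb and 10 of 1 to 2 kb. Only 9 of the 126 were 1 kb or shorter, and the shortest in the list was 547 bp. Most neighbours were therefore separated by far more than the length to which each read was extended.

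The largest group, on chromosome 11, held 5 peaks over 47949 bp. A single tall peak at 32151066 stood among low ones: 35 ChIP reads and 9 input reads covered its summit, a ratio of 10.6 after scaling each library to all its reads (95% interval 4.98 to 24.98). The peaks at 32145733, 32156240, 32169186 and 32193682 had 10, 9, 11 and 9 ChIP reads against 1, 3, 2 and 3 input reads. Beside the summit, between 100 and 300 bp away from the midpoint, the tall peak had 38 ChIP and 12 input reads, a flank ratio of 8.60 (4.40 to 18.1). The peak at 32193682 had 3 and 10 there, a flank ratio of 0.815 (0.144 to 3.16). Its flanks thus showed no ChIP excess that could be detected at this depth.

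The group of 4 on chromosome 6 was built differently, with its peaks nearer in height. From 38853239 to 38874274 the summits were covered by 15, 22, 22 and 10 ChIP reads and by 2, 2, 4 and 3 input reads. The pair in the middle, at 38861000 and 38866741, lay 5741 bp apart. Their ratios were 29.9 (7.34 to 262) and 14.9 (5.07 to 59.6), intervals that overlap. The flank ratio was 5.88 (2.87 to 12.8) at 38861000 and 2.04 (0.758 to 5.27) at 38866741. No other group had a second-highest peak above 21.

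On chromosome 3, 4 peaks of 13, 12, 18 and 19 ChIP reads were spread over 82297 bp, the longest span of any group. They lay at 151778045, 151785828, 151814705 and 151860342, with 2, 6, 3 and 2 input reads at the summit. All 4 had a flank ratio whose interval lay above 1, from 2.91 (1.31 to 6.51) to 14.9 (3.26 to 139). The group on chromosome 7 from 110976443 to 111019396 had 12, 17, 13 and 10 ChIP reads against 3, 0, 2 and 3 input reads. At 111007779 no input read covered the summit. Counting 3 input reads as the most that a count of 0 allows, that peak was at least 15.4-fold enriched. Its exact interval, which also covers the counting error of the ChIP reads, began at 11.2.

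The remaining groups of 4 held only low peaks. Heights of 13, 11, 13 and 9 were found on chromosome 17 between 84136241 and 84209814. The group on chromosome 5 between 118930175 and 118942709 had 12, 9, 13 and 11 ChIP reads, and that on chromosome 11 between 115368089 and 115374723 had 10, 11, 10 and 9. Summed over their peaks, ChIP exceeded input 8.92-fold (4.82 to 17.6), 7.19-fold (4.03 to 13.4) and 8.36-fold (4.38 to 17.0). The groups on chromosomes 11 (5 peaks), 6 and 7 reached 11.2-fold (6.60 to 19.9), 17.0-fold (8.95 to 35.7) and 17.7-fold (8.33 to 43.0). The intervals of all these groups overlap.

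**Figure D1:**
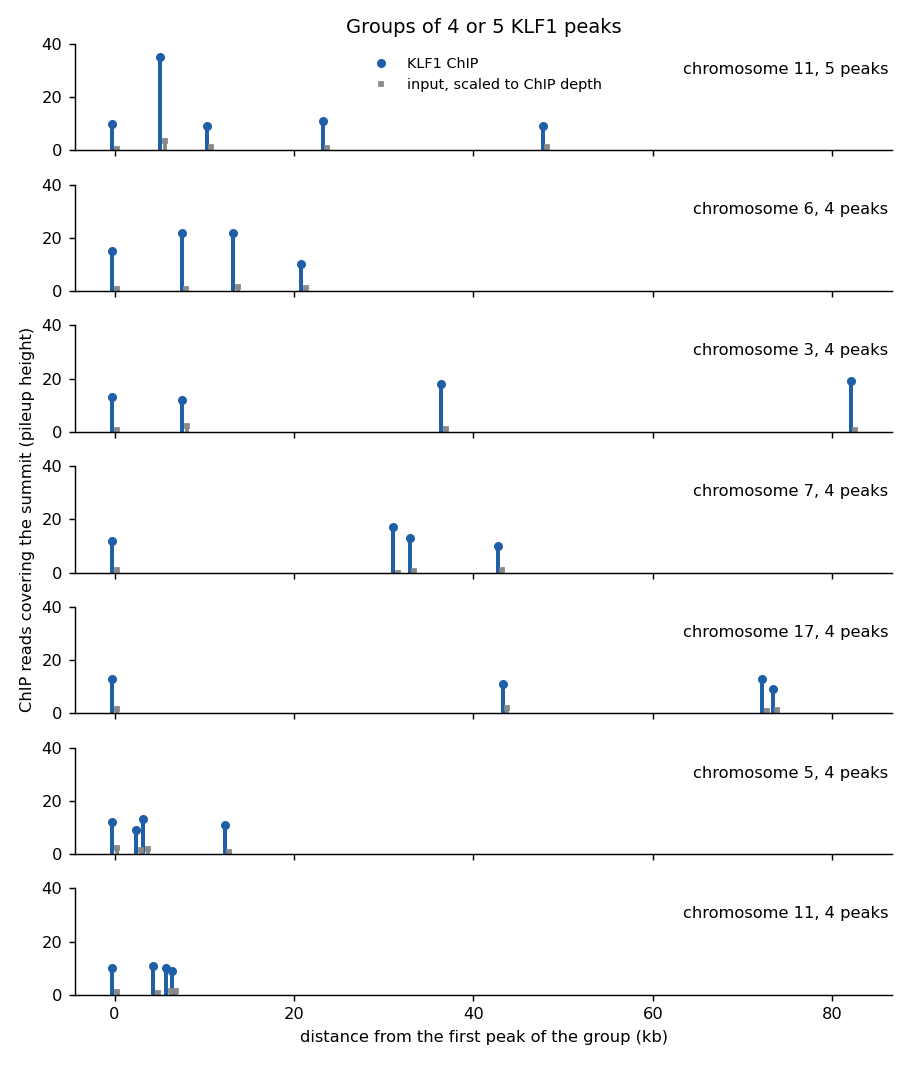
Pileup height of each peak (blue, ChIP reads covering the summit) and input reads there scaled to ChIP depth (grey) in the 7 groups of 4 or 5 peaks, against distance from the first peak in kb. The 5-peak group on chromosome 11 has 1 peak of 35 among peaks of 9 to 11, while the group on chromosome 6 has 2 peaks of 22.

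Several groups with the largest summed height owed it to 1 peak. On chromosome 17 a peak of 57 ChIP reads and 3 input reads at 35878969, the highest of the whole list, had a neighbour of 9 ChIP and 2 input reads 1204 bp away. The flanks of the tall peak held 48 ChIP reads and 5 input reads. Those of its neighbour at 35880173 held 3 and 18, a flank ratio of 0.453 (0.0854 to 1.55). On chromosome 6 a peak of 47 at 72229670 lay 6396 bp from a peak of 9 at 72223274, whose flank ratio was 1.14 (0.433 to 2.74). On chromosome 8 a peak of 47 at 19984278 was paired with a peak of 10 at 19995778, and the flanks of the latter held no read of either library. On chromosome 18 a peak of 34 at 32702272 was followed by peaks of 12 and 10 at 32716457 and 32719706, with 4, 2 and 0 input reads. On chromosome 4 a peak of 29 at 135734098 stood between peaks of 15 at 135730914 and 9 at 135745875.

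Groups with more than 1 tall peak were few. On chromosome 13 peaks of 27, 9 and 21 at 112833979, 112837286 and 112863894 had 4, 2 and 2 input reads. Here height and flanks did not go together: the flank ratio was 1.09 (0.414 to 2.57) beside the peak of 27 and 5.82 (2.23 to 16.9) beside the peak of 9. On chromosome 14 peaks of 26 and 19 at 69923037 and 69940076 had ratios of 8.83 (3.88 to 22.6) and 17.2 (5.06 to 90.7), so the lower peak had the larger ratio, within overlapping intervals. On chromosome 16 peaks of 37 and 18 lay 31138 bp apart at 8655920 and 8687058, with 3 and 5 input reads.

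Across all 98 groups, few neighbours were both tall. A peak of 20 or more ChIP reads was present in 34 groups, but only 2 groups, those on chromosomes 6 and 13, had a second. Of the 126 gaps, 1 separated 2 such peaks, 40 joined a peak of 20 or more to a lower one, and 85 joined 2 lower peaks. Peaks of 20 or more made up 16.1% of the grouped peaks and 11.1% of the whole list, so pairs of them would be few in any case. Whether they were fewer than these shares give was not tested. Peaks of 11 or more made up 58.9% of the grouped peaks and 53.3% of the whole list. At that limit, 41 gaps had both peaks at 11 or more, 71 had 1 and 14 had none. All peaks reached 11 in 28 groups and none did in 12. Whether these counts differ from what those shares give was not tested. A peak of height 9, the lowest in the list, was part of 47 groups. When only peaks of height 11 or more were kept, 83 had a neighbour within 50 kb.

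The share of tall peaks was higher with a neighbour, although the intervals overlap. Heights of grouped peaks ran from 9 to 57 with a median of 11 (quartiles 10 and 15), and those of the other peaks from 9 to 44 with a median of 11 (quartiles 9 and 14). A height of 20 or more was reached by 36 of the 224 peaks, or 16.1% (11.5% to 21.5%), against 11.1% of the whole list and 69 of the 721 other peaks, or 9.57% (7.52% to 12.0%). Of the 20 highest peaks of the list, 10 had a neighbour within 50 kb. Peaks of height 9 made up 24.6% (19.1% to 30.7%) of those with a neighbour and 31.8% (28.4% to 35.3%) of the others. The medians did not differ, and the intervals for height 9 overlap.

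The shift in heights did not stop at 50 kb. Heights of 9 or 10 made up 40.5% of the 79 peaks whose nearest neighbour lay 20 to 50 kb away. The share was 30% of the 70 peaks at 50 to 100 kb and 40.5% of the 111 peaks at 100 to 200 kb. It rose to 55.2% of the 384 peaks with no neighbour within 500 kb. For heights of 20 or more, the 70 peaks at 50 to 100 kb stood at 11.4% (5.07% to 21.3%) and the 384 at 8.59% (5.99% to 11.9%). At the near end, the 18 peaks within 1 kb of another had a median of 9.5, and 11 of them (61.1%) were of height 9 or 10. The 19 peaks at 1 to 2 kb had a median of 13, and 6 of them (31.6%) were of height 9 or 10. In the whole list the share was 46.7%.

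At the summits, enrichment over input was close in size with and without a neighbour. By a ratio of 5 or more, with no read added to either count, 222 of the 224 peaks were enriched, or 99.1%, where the whole list had 98.4%. At 10 or more the count was 124, or 55.4%, and the whole list had 58.0%. Both shares are near those of the list, which had been made from the same reads and is labelled 5-fold. The share at 5 or more may thus have been set when the list was made, so no conclusion is drawn from it. With reads extended by a further 50 positions, 199 of the 224 peaks reached a ratio of 5. For read ends within 200 bp the count was 168. Summed over the 224 peaks, 3146 ChIP and 685 input reads covered the summits, a ratio of 12.5 (11.5 to 13.6). The other peaks had 9148 and 2043 reads, a ratio of 12.2 (11.6 to 12.8). Among the 216 peaks with at least 1 input read, single ratios ran from 4.27 to 59.7 with a median of 10.9. The 8 without one were at least 8.15-fold to 19.9-fold enriched, by the limit of 3 input reads, and their exact intervals began at 5.36 to 14.9.

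Reads beside the summits were also in excess. Summit coverage was counted at the listed start, and flanks from the midpoint. Where these differ, a flank read can also cover the summit. In the flanks of the 224 peaks lay 2255 ChIP and 2532 input reads, a ratio of 2.42 (2.28 to 2.56). The flanks of the other peaks had a ratio of 2.23 (2.16 to 2.31). Single flank ratios exceeded 1 at 197 of the 224 peaks (87.9%) and at 564 of the 721 (78.2%). In the whole list they did at 761 of 945 (80.5%). These counts were not matched for height. At matched height the sets differed in either direction. Peaks of 20 or more had 4.24 (3.75 to 4.79) with a neighbour and 4.39 (4.01 to 4.81) without, and those of 11 to 14 had 2.19 (1.97 to 2.43) and 2.28 (2.14 to 2.43). Peaks of 15 to 19 were lower with a neighbour, 2.39 (2.03 to 2.80) against 2.96 (2.72 to 3.22). Peaks of height 9 were higher with one, 1.64 (1.44 to 1.87) against 1.36 (1.27 to 1.46), and those of height 10 had 2.08 (1.78 to 2.43) and 1.91 (1.75 to 2.09). The direction therefore differed between height classes, and within each class the intervals overlap.

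**Figure D2:**
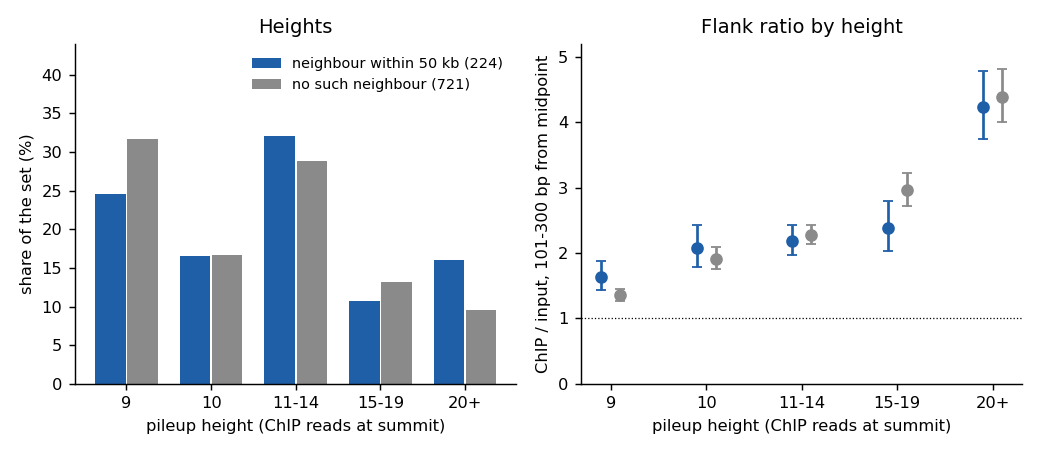
Left, share of peaks in each class of pileup height for the 224 peaks with a neighbour within 50 kb (blue) and the 721 without (grey). Right, ratio of ChIP to input between 100 and 300 bp away from the midpoint for the same classes, with 95% counting intervals; both sets rise with height, to 4.24 and 4.39 at heights of 20 or more.

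In ChIP-seq, fragments around a bound site are read from both ends, so forward reads lie mostly before the site and reverse reads after it. Among the 206 grouped peaks with no other peak within 1 kb, 60.1% (56.9% to 63.1%) of ChIP reads in the upstream flank were on the forward strand. Downstream the share was 39.8% (36.9% to 42.8%). In the input it was 47.97% (45.0% to 50.9%) and 48.2% (45.3% to 51.1%). The peaks with no neighbour within 50 kb had 59.4% (57.6% to 61.2%) and 39.6% (37.9% to 41.3%) in the ChIP. At the summit itself, all 224 grouped peaks had ChIP reads on both strands. The smallest share on the minor strand was 7.14%, at 34485063 on chromosome 4, where 1 of 14 reads was on the forward strand. Among the other 721, 17 peaks of height 16 or less had all their summit reads on 1 strand. These were also the only 17 among all 945 peaks, so few would be found among 224 in any case. Whether the sets differ in this was not tested.

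The closest neighbours were mostly a low peak beside another peak. Of the 9 gaps up to 1 kb, 8 involved a peak of height 9, compared with 47 of the 117 longer gaps. Examples were chromosome 4 at 118862630 and 118863385, with 30 and 9 ChIP reads 755 bp apart, and chromosome 10 at 43329470 and 43330206, with 23 and 9 reads 736 bp apart. On chromosome 11 peaks of 21 and 9 at 121295024 and 121295661 were 637 bp apart. ChIP coverage fell to 0 somewhere between the midpoints in all 9 cases, and also in all 19 gaps up to 2 kb. At this depth coverage of 0 was also common away from peaks. A fall to 0 therefore cannot show that 2 entries are separate sites. More than 100 bp from both midpoints, the 9 short gaps held 113 ChIP and 130 input reads, a ratio of 2.36 (1.82 to 3.06). That is close to the flank ratio of grouped peaks as a whole, in which the reads nearest these midpoints are counted too. Whether these are separate sites was not tested.

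The ratio in the DNA between neighbours was near that of the libraries as a whole. With 1 kb left out on each side of every listed midpoint, 1864 kb remained, holding 18759 ChIP and 50679 input reads, a ratio of 1.01 (0.988 to 1.02). With 500 bp left out it was 1.02 (1.002 to 1.04), an interval above 1. At 50 to 100 kb from the same peaks the ratio was 0.954 (0.948 to 0.96). Between neighbours it differed with the distance. Between peaks up to 10 kb apart the ratio was 1.16 (1.10 to 1.23), over the 42 gaps that had bases left. It was 1.01 (0.963 to 1.05) between peaks 10 to 20 kb apart and 0.987 (0.968 to 1.01) between peaks 20 to 50 kb apart. In the short gaps, 27 of 42 had a ratio over 1, and in the longest 23 of 46. Bases left in short gaps also lay nearer to listed peaks. Around grouped peaks the ratio fell from 1.11 at 1 to 2 kb to 0.992 at 10 to 20 kb. With 2 kb left out on each side, the ratio in short gaps was 1.19 (1.11 to 1.29). At 2 to 5 kb from grouped peaks it was 1.03 (1.01 to 1.05). The part of nearness to a peak in the ratio of short gaps was not tested.

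Groups differed in the reads between their peaks. In 10 of the 86 groups with bases left, the interval of the ratio between peaks lay above 1, and in 7 it lay below 1. The same count was not made for stretches away from the groups, so no share can be set beside it. The intervals cover counting error only, and at 50 to 100 kb from grouped peaks the ratio was 0.954. On chromosome 7 from 38964041 to 38977347 the gaps between 3 peaks held 339 ChIP and 603 input reads, a ratio of 1.53 (1.33 to 1.75). Input density there was 64.8 reads per kb, against a median of 27.6 over the groups. A pair on chromosome 12 from 116846582 to 116856585 had a ratio of 1.54 (1.32 to 1.79) and 57.99 input reads per kb. No other group exceeded 40.6. Without the group on chromosome 7 the ratio in short gaps was 1.11 (1.04 to 1.17). Without the pair on chromosome 12, whose peaks lay 10003 bp apart, the ratio between peaks 10 to 20 kb apart was 0.971. The part of input density in the excess was not tested.

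Other groups had a raised ratio at lower input density. The 4 peaks on chromosome 7 from 110976443 to 111019396 had 320 ChIP and 642 input reads between them over 37142 bp, a ratio of 1.35 (1.18 to 1.55) at 17.3 input reads per kb. The pair on chromosome 8 from 19984278 to 19995778 had 144 and 259, a ratio of 1.51 (1.22 to 1.86) at 27.3 per kb. The bases counted there included a pileup at 19994434 of 14 ChIP and 7 input reads that is not in the list. On chromosome 1 from 173447863 to 173470924 the ratio was 1.33 (1.18 to 1.49) at 40.6 input reads per kb, the densest input after the 2 groups above. In the 5-peak group on chromosome 11, by comparison, 406 ChIP and 1036 input reads lay between the peaks, a ratio of 1.06 (0.946 to 1.19). In the groups just named with a raised ratio, the 50 kb around the first peak also held fewer than 2.72 input reads per ChIP read. These counts are unscaled and include the peaks and the DNA between them, so the DNA outside was not counted apart. Within 50 kb of the peak at 110976443, peaks included, lay 798 ChIP and 1324 input reads. Around 19984278 lay 953 and 1600, and around 173447863 lay 1712 and 3681. In the groups of densest input, 1713 and 3535 lay around 38964041, and 1519 and 2385 around 116846582. The same did not hold in every group with an interval above 1. On chromosome 1 the pair from 135694024 to 135696468 had a ratio of 3.32 (1.25 to 9.06) between its peaks. Around 135694024 lay 1089 ChIP and 2984 input reads. Among the groups with an interval below 1, the lowest ratios were 0.691 (0.547 to 0.867) on chromosome 17 from 28946289 to 28960500 and 0.699 (0.612 to 0.796) on the same chromosome from 25003361 to 25039867.

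**Figure D3:**
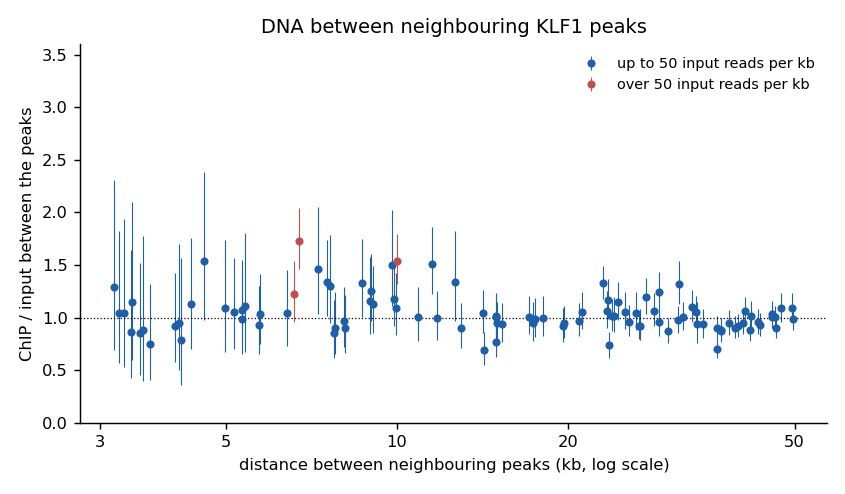
Ratio of ChIP to input in the DNA between neighbouring peaks, 1 kb around each listed midpoint left out, against the distance between the peaks in kb (log axis), for gaps with 20 or more input reads and with 95% counting intervals. Most points lie around 1; red marks gaps in which input exceeded 50 reads per kb.

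**Figure D4:**
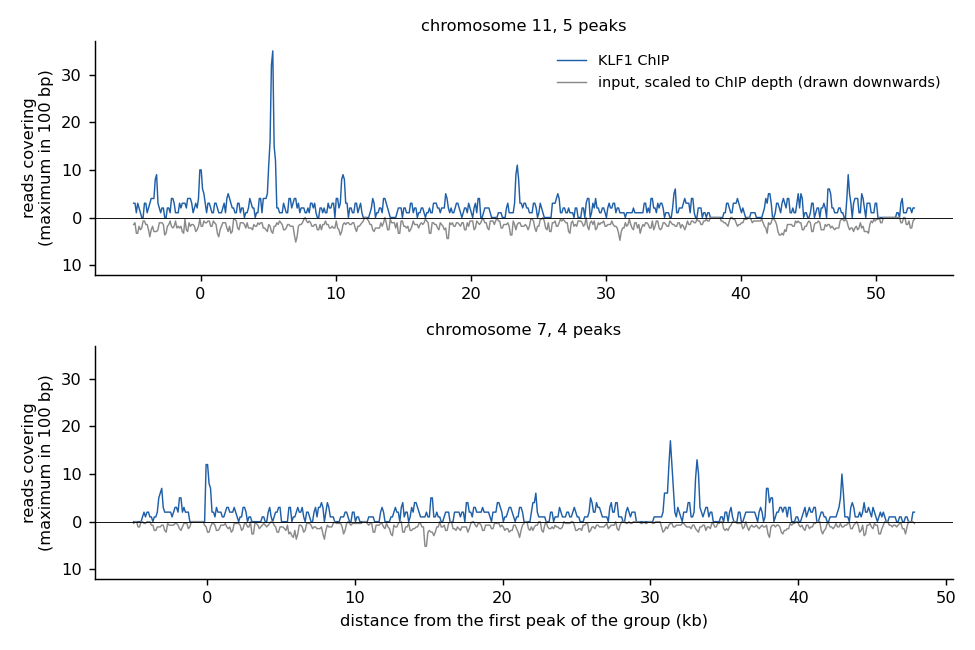
Reads covering each position (highest value in each 100 bp) in the 5-peak group on chromosome 11 and the 4-peak group on chromosome 7, for ChIP (upwards) and input scaled to ChIP depth (downwards), against distance from the first peak in kb. The peak of 35 reads stands alone on chromosome 11, and on chromosome 7 the peaks of 17 and 13 reads lie side by side.

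Grouped peaks also lay in stretches of denser input. At 1 to 2 kb from the midpoint, with other peaks left out, the input held 28.5 reads per kb around grouped peaks and 25.4 around the others, where the autosomes as a whole had 18.9. The difference narrowed with distance, to 24.8 and 24.1 at 50 to 100 kb. The ratio of ChIP to input at 1 to 2 kb was 1.11 (1.07 to 1.15) around grouped peaks and 1.03 (1.01 to 1.05) around the others. At 5 to 10 kb it was 1.01 (0.996 to 1.03) and 0.972 (0.964 to 0.981). At 100 to 200 kb the order was the opposite, 0.935 (0.93 to 0.94) around grouped peaks and 0.947 (0.945 to 0.949) around the others, while input was still denser around the grouped peaks. Restricted to heights of 9 or 10, it was 1.08 (1.02 to 1.14) and 1.00087 (0.973 to 1.03) at 1 to 2 kb. The part of input density in this difference was not tested.

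**Figure D5:**
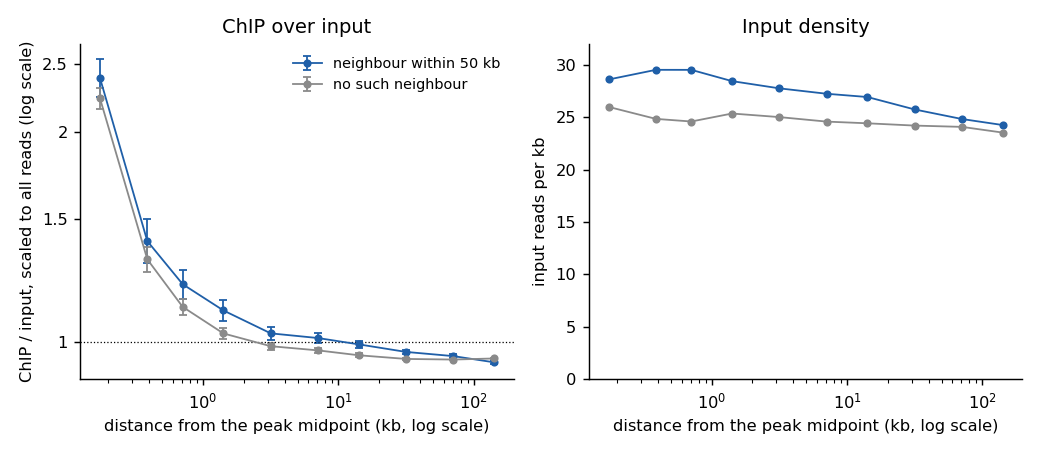
Left, ratio of ChIP to input against distance from the peak midpoint (both axes logarithmic), with 95% counting intervals, for peaks with (blue) and without (grey) a neighbour within 50 kb. Right, input reads per kb at the same distances; grouped peaks start at 28.6 per kb and the others at 26.0, and both come close to 24 at 100 to 200 kb. Points under 1 kb use only peaks with no neighbour within 2 kb, and from 1 kb on, 1 kb around every listed midpoint is left out.

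Whether a peak counts as having a neighbour depends on what the list holds. Pileups of 8 or more ChIP reads at 5-fold over input, more than 1 kb from any listed midpoint, were counted from the reads. Within 50 kb of the 224 peaks lay 23, or 2.02 per Mb at 26.0 input reads per kb. Around the other 721 peaks lay 100, or 1.43 per Mb at 24.4 input reads per kb. Over all chromosomes with a listed peak there were 0.372 per Mb at 18.3 input reads per kb. Such a pileup lay within 50 kb of 91 of the 721 peaks (12.6%), which would have had a neighbour had the list held these pileups. Of the pileups, 5 of the 100 and 2 of the 23 were of height 9 or more, so they reached the lowest listed height and were still not in the list. It lay near 40 of the 224 peaks (17.9%), some of which share a pileup. The 2 highest near grouped peaks were on chromosome 8 at 19994434, with 14 ChIP and 7 input reads, and on chromosome 7 at 38962666, with 10 and 5. Both had a ratio of 5.43. The first lay between the peaks of its group and the second 1375 bp before the first peak of its group.

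Chromosomes differed in the share of their peaks that were grouped. Chromosome 11 had 34 of 81 (41.98%, 31.1% to 53.5%), chromosome 17 had 17 of 42 (40.5%, 25.6% to 56.7%) and chromosome 7 had 26 of 71 (36.6%, 25.5% to 48.9%). At the other end chromosome 2 had 4 of 64 (6.25%, 1.73% to 15.2%). Chromosome 11 was also rich in listed peaks, with 3.03 per 100000 input reads, and chromosome 2 had 1.82. Chromosome 19, with 3.15, had 9 of 38 grouped (23.7%, 11.4% to 40.2%), an interval that overlaps that of chromosome 11. The part of peak density in these shares was not tested. Peaks of 1 group count together in these shares, so the intervals are too narrow.

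Peaks on either side of the limit overlapped in height. Just inside it, on chromosome 11, peaks of 13 and 12 ChIP reads at 107259112 and 107308892 were 49780 bp apart, and peaks of 12 and 9 at 86427724 and 86477196 were 49472 bp apart. Just outside, a peak of 14 on chromosome 5 at 144685846 was 50157 bp from its nearest neighbour. Peaks of 12 and 17 on chromosome 17 at 24289453 and 24340050 were 50597 bp apart. Their ratios, from 6.34 to 7.69, lay within the intervals of those just inside.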

How the data were processed

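Reads and peaks were used as deposited. Per the submitters' processing notes the build was mm9. Aligner, peak caller and their settings are not given in the sources used here, beyond the label of 5-fold on the peak list. The fourth column of the authors' peak list is the pileup height, a signal: it equalled the ChIP coverage at the listed start for all 945 peaks with reads extended to 101 positions. No 2 reads shared position and strand in either library, so each height counts a position and strand once. Midpoints are integer means of the listed start and end, printed as deposited.

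Ratios are ChIP over input reads, each library scaled to all its reads (17438921 and 47356494). Flanks span 101 to 300 bp from the midpoint. Members and lists were chosen with earlier results of these data known, and the members on the same reads, so no test was run. Named groups were those of 4 or more peaks, the 10 of largest summed height, the 5 with the highest second peak, and peaks beside the 50 kb limit; other sites named were chosen after their values were seen. The gene and promoter tables at hand use another build, so peaks were not assigned to genes and no sequence was read. Counting was tested on simulated reads. Intervals came from SciPy 1.17.1 and plots from matplotlib 3.10.9, with tables in pandas 2.3.3 and arrays in NumPy 2.4.6, under Python 3.11.15.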

Additional observations from a re-analysis of the deposited data

How the results depend on the processing

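Altogether 29 alternatives were run for 7 results, and 5 of these were added after seeing the data. Of the 29, 18 stayed within the counting interval or within 1.5 times the count, 11 moved further and none reversed a direction. Peaks with a neighbour numbered 112 within 10 kb, 145 within 20 kb and 83 when only peaks of height 11 or more were used. At a ratio of 10 or more, 124 of the peaks were enriched. The summed summit ratio of 12.5 became 9.71 with reads extended by a further 50 positions, 7.83 for read ends within 200 bp and 13.8 for heights of 11 or more. The flank ratio of 2.42 became 2.79 up to 200 bp, 1.91 up to 500 bp and 2.80 for heights of 11 or more. The median height of 11 became 14 to 15 for the highest peak of each group, which that choice raises by construction. The ratio between peaks up to 10 kb apart was 1.22 with 500 bp left out, 1.19 with 2 kb and 1.11 without the groups of densest input. No paired analysis was possible because each deposited file merges both runs. Leaving out a run, and the share of peaks with a CACCC box, were not run. Single ratios rest on 0 to 12 input reads, so most differences between single peaks were not detectable at this depth.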
